A study of Rattus norvegicus with 49 samples.

Results

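Expression of 8 genes that activate, inactivate, carry, sense or respond to thyroid hormone was examined in rat thyroid after 131I exposure. They were the deiodinases Dio1, Dio2 and Dio3, the transporters Slc16a10 and Slco1c1, the receptors Thra and Thrb, and the hormone-responsive gene Thrsp. The members were chosen by name, as probes whose RefSeq accession matched one of the 8 symbols, out of 15154 symbols matched on the array. Each gene was represented by 1 probe, printed as 2 spots per array. In the GRCr8 rat genome, Dio1 lies at chr5:127303089-127319784, Dio2 at chr6:115396308-115410594, Dio3 at chr6:135107072-135108933 and Slc16a10 at chr20:45014229-45122392. Slco1c1 lies at chr4:176197736-176244401, Thra at chr10:84198141-84225659, Thrb at chr15:10115954-10465231 and Thrsp at chr1:161134640-161138964.

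Male Sprague Dawley rats were injected with 131I at 5 weeks of age (young) or at 17 weeks of age (adult). Young rats given 50 kBq were examined 3, 6 and 9 months after injection, at 4, 7 and 10 months of age, and young rats given 0.5, 5 or 500 kBq were examined after 9 months. Adult rats given 50 kBq were examined 3, 6 and 9 months after injection, at 7, 10 and 13 months of age. Untreated controls were 4, 7, 10 and 13 months old, and those of 7 and 10 months served both young and adult groups. Each of the 49 one-colour arrays held RNA from the excised thyroid of 1 rat. There were 4 arrays per group, but 3 for the 5 kBq group, the 7-month controls and the 13-month controls. Young and adult groups compared at the same time after injection differ in age at both injection and sampling, and these ages cannot be told apart there.

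The thyroid secretes mainly the prohormone thyroxine (T4). Dio1 and Dio2 convert it to the active hormone T3, and Dio3 removes an inner-ring iodine and inactivates T4 and T3. Hormone crosses membranes through carriers such as Slc16a10, and T3 acts in the nucleus through Thra and Thrb, which pair with retinoid X receptors on DNA. Dio1 is abundant in the follicular cells of rat thyroid, whereas Dio2 is best known from brown fat, pituitary and brain.

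Levels are given as log2 of the processed signal minus the 75th percentile of the same array, so that 1 unit is a doubling. Because probes differ in brightness, a gene's level was compared between groups only and never with that of another gene. The probes of Dio1, Dio2, Dio3, Slc16a10, Thra and Thrsp were well above background on 46 to 49 of the 49 arrays. Slco1c1 was well above background on 7 arrays and Thrb on 10 arrays, so most of their values describe background signal.

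Tissue identity was checked with 10 follicular thyrocyte markers. Their mean level lay between -0.061 and 2.27 on 46 arrays, but was -3.97 on replicate 3 of the young 50 kBq group at 3 months and -4.90 on replicate 2 of the 7-month controls. Thyroglobulin (Tg) was at 0.14 and -0.69 on these arrays, against 6.41 to 7.91 on the 46 others. Another array, replicate 2 of the young 50 kBq group at 3 months, was dim, with 43.1% of spots well above background against 70.1% to 82.5% on the 46 arrays. Where a difference described here includes one of these arrays and moves with it, its value without them is also given. In whole tissue, fewer cells of a type and less RNA per cell cannot be told apart.

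A transcript was called changed when it differed more than 1.5-fold in either direction with a Benjamini-Hochberg adjusted p-value under 0.01, using limma over all 24105 tested probes. None of the 72 gene and exposure pairs passed, against 0.0779% of all probe and comparison pairs. In the same limma fit, 7 of the 72 pairs had an unadjusted p-value below 0.05, against 8.79% of all pairs. In 8 of the 72 pairs (11.1%) the exposed and control arrays did not overlap, against 8.37% of all pairs. Of the 24 gene and age pairs 1 was called, the decrease of Slc16a10 in the 13-month controls, against 1.93% of all pairs. For 2 of the 24 pairs (8.33%) the arrays did not overlap, against 15% of all pairs.

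**Figure D1:**
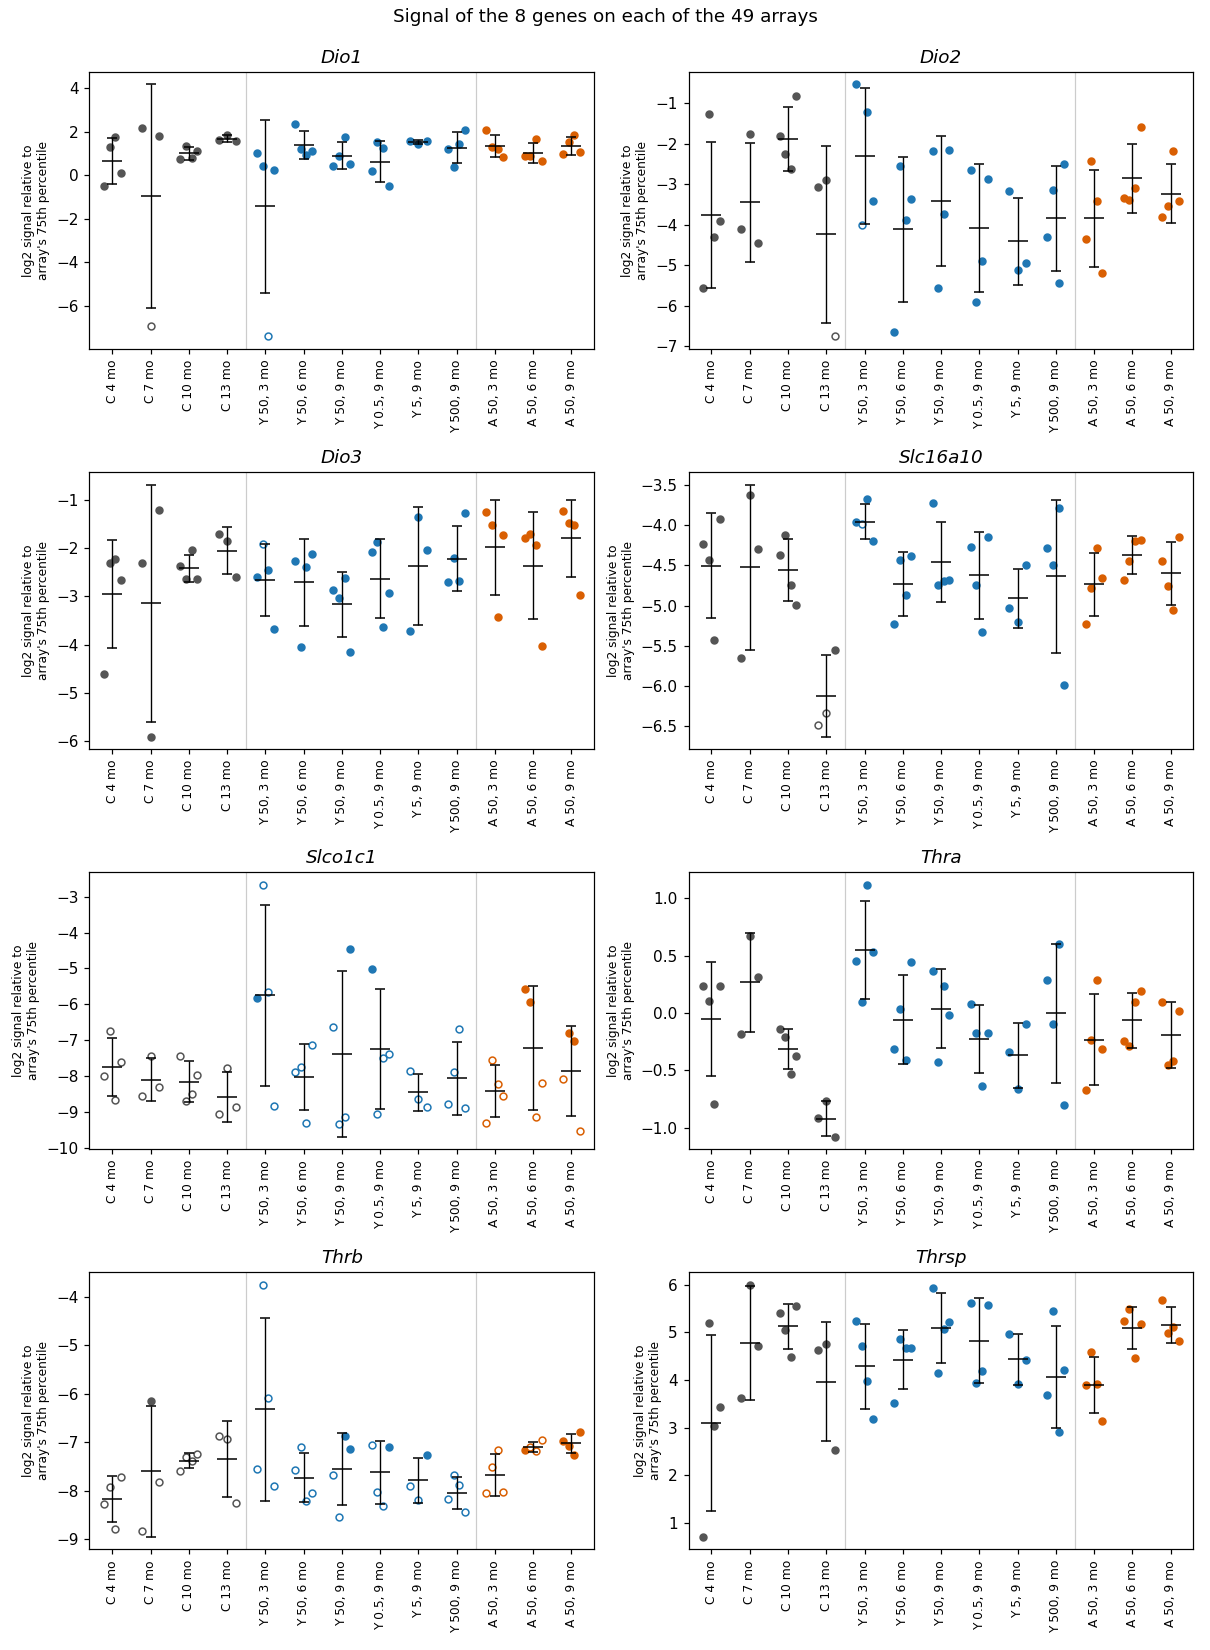
Log2 signal of each gene relative to the array's 75th percentile (y axis) on the 49 arrays by group (x axis: C, controls by age; Y and A, rats injected young or adult, with the activity in kBq and the months after injection). Points are arrays, open where the probe was not well above background, and bars are mean ± SD; Slc16a10 and Thra are lowest in the 13-month controls, and Dio1 is near -7 on the 2 arrays with few thyrocyte transcripts.

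Dio1, the selenoenzyme that deiodinates both rings of thyroid hormone, had its level set mainly by individual arrays. Between the 46 arrays it ranged from -0.51 to 2.33 with a median of 1.20. It was -7.40 on replicate 3 of the young 50 kBq group at 3 months and -6.91 on replicate 2 of the 7-month controls, the arrays low in thyrocyte transcripts. On both, Dio1 was not well above background.

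These 2 arrays determined the largest Dio1 differences. In young rats 3 months after 50 kBq, Dio1 was -2.10 ± 1.22 (log2 fold change ± SE, adjusted p = 0.199 with limma) relative to 4-month controls, and -0.047 without the arrays that stand apart. Against the 7-month controls it was 2.37 ± 1.31 in young rats after 6 months and 2.33 ± 1.31 in adult rats after 3 months. Without the control array low in thyrocyte transcripts these differences became -0.60 and -0.64, so their sign turned. All young arrays after 6 months were scanned on day 1, and the 7-month controls on days 2 and 3. Exposure and scan day cannot be told apart in that comparison.

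At 5 kBq, 9 months after injection, Dio1 was at 1.56, 1.41 and 1.59, and the 10-month controls were at 0.73, 1.36, 0.80 and 1.12. All 3 exposed arrays lay above the controls, at a log2 fold change of 0.52 (adjusted p = 1.00 with limma, exact two-sided permutation p = 0.0571). The SE was 1.31, and 0.46 without the 3 arrays that stand apart (adjusted p = 0.792 with limma), none of which belongs to these groups. Every Dio1 SE of the shared fit includes the spread of those arrays. In this comparison 15.6% of all probes did not overlap. Thyrocyte markers were also higher on the 5 kBq arrays, with means of 1.55 to 1.69, all above those of the controls. Their part in the Dio1 difference was not tested. The genes most like Dio1 over 49 arrays were Gsta3, a glutathione transferase, Clic3, a chloride channel protein, and Tmc4 (r = 0.98 each), and r was 0.89, 0.88 and 0.88 over the 46 arrays. The ranking changed over the 46 arrays, where Slc29a3, Sfrp5 and Tmem98 came first (r = 0.95, 0.94 and 0.94). The Dio1 value turned to -0.046 when the scan date was included as a block.

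Dio2, which activates T4 by outer-ring deiodination, was highest in the 10-month controls, the comparison group of all 4 activities at 9 months. Its levels there were -1.82, -2.27, -2.64 and -0.82. The 0.5 kBq arrays were at -2.66, -5.90, -4.91 and -2.88, and the 5 kBq arrays at -3.17, -5.12 and -4.96. Both groups lay wholly below the controls. Of all probes, 1.09% at 0.5 kBq and 15.6% at 5 kBq did not overlap in either direction. The highest 0.5 kBq array, at -2.66, was next to the lowest control, at -2.64.

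The arrays at 50 kBq were at -2.19, -5.57, -3.74 and -2.17, and those at 500 kBq at -4.30, -3.15, -5.43 and -2.52. Both groups overlapped with the controls. The log2 fold changes were -2.20 ± 0.99, -2.53 ± 1.07, -1.53 ± 0.99 and -1.96 ± 0.99 (± SE) at 0.5, 5, 50 and 500 kBq, none of which was called (adjusted p = 1.00 with limma at each). Exact two-sided permutation p-values were 0.0286, 0.0286, 0.2 and 0.0571, the first 2 being the smallest that these group sizes allow. All 4 comparisons share the same 4 control arrays. Within 2 scan days the Dio2 difference was -2.85 (3 against 3 arrays) and -0.24 (1 against 1) at 0.5 kBq, and -3.49 (1 against 3) and -2.32 (1 against 1) at 5 kBq. At 50 kBq it was -0.54 (2 against 3) and -2.02 (2 against 1). At 500 kBq it was -0.51 (1 against 1) on the only shared scan day. The other 500 kBq arrays were scanned on day 2, which held no 10-month control, so exposure and scan day cannot be told apart for them. Among the exposed arrays the slope was 0.16 ± 0.28 per 10-fold activity (n = 15 arrays, adjusted p = 1.00 with limma), and no member was called in this trend, against 0% of 22358 probes.

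Brown adipocyte markers, of which 6 of 7 had a probe and 4 or 5 were well above background, were read on these same arrays. The mean of the list was 0.61 to 0.95 in the 10-month controls. With 0.5 kBq it ranged from -1.72 to 0.99, and with 5 kBq from -0.31 to 0.34. After 50 kBq the range was 0.022 to 1.23, and after 500 kBq it was -0.64 to 0.81. The log2 of their summed signal was 6.68 to 7.46, 5.44 to 7.86, 5.87 to 6.68, 6.17 to 7.83 and 6.11 to 7.43 in these groups, in the same order. Brown adipocyte marker means at 5 kBq lay wholly below those of the controls, whereas those at 0.5, 50 and 500 kBq overlapped with them. White adipocyte markers overlapped with the controls in every exposed group. Their control means ran from 1.24 to 1.97 (median 1.83). On the 5 kBq arrays they spanned 0.26 to 1.94 (median 0.82). The part of brown or white adipocyte markers in the Dio2 difference was not tested.

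**Figure D2:**
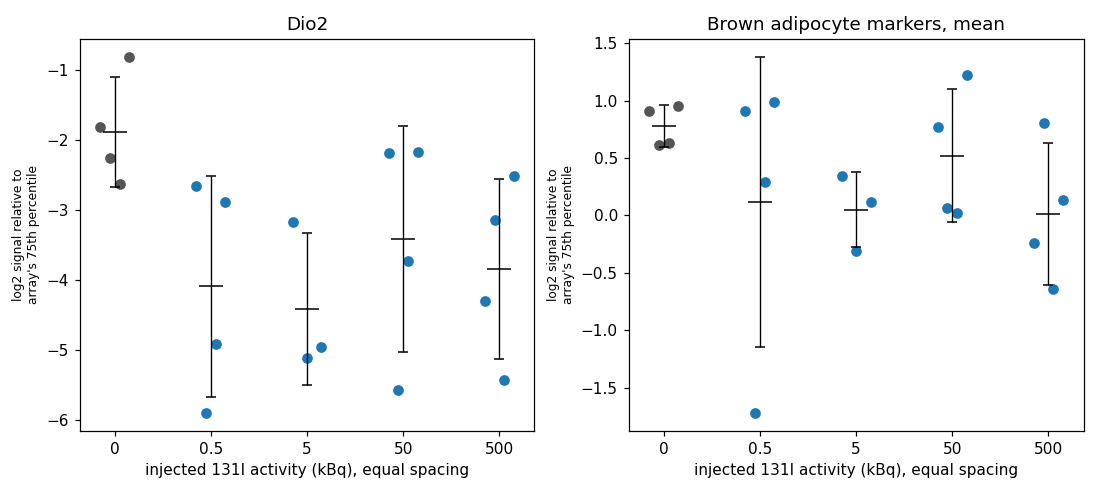
Dio2 (left) and the mean of the brown adipocyte markers (right), as log2 signal relative to the array's 75th percentile, in 10-month controls (0 kBq) and 9 months after injection of young rats; points are arrays and bars are mean ± SD. Dio2 at 0.5 and 5 kBq lies wholly below the controls, which are at -2.64 to -0.82, and the controls also have a narrow marker range of 0.61 to 0.95.

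Over the 46 arrays Dio2 followed the brown adipocyte markers with r = 0.83 (Spearman rho = 0.83) and the white adipocyte markers with r = 0.81 (rho = 0.77). With group means removed these values were 0.84 and 0.87. The 3 genes most like Dio2 over the 49 arrays were Slc36a2, an amino acid transporter (r = 0.85), Dgat1, a triglyceride-synthesising enzyme (r = 0.84), and Pparg, the adipocyte transcription factor (r = 0.83). These correlations describe arrays that share scaling, and tissue makeup was not measured separately.

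In the other exposure comparisons the Dio2 groups overlapped. In young rats 3 months after 50 kBq its levels were -0.54, -4.02, -1.21 and -3.41, against -5.57, -1.28, -4.31 and -3.92 in 4-month controls (log2 fold change 1.48, adjusted p = 0.266 with limma, and 1.79 without the 2 exposed arrays that stand apart). In adult rats the log2 fold changes were -0.40, -0.97 and 1.01 after 3, 6 and 9 months, and the first turned to 0.44 without the 7-month control array that stands apart. Among controls Dio2 was 1.89 ± 0.99 higher at 10 than at 4 months of age, also with overlap (adjusted p = 1.00 with limma). The young minus adult difference after 9 months was -2.54 ± 1.45 (adjusted p = 0.428 with limma). No member was called in the 5 contrasts that set effects of 50 kBq against each other (40 pairs), against 0% of all probes, while 10 of the 40 pairs had an unadjusted p-value below 0.05 with limma, against 16.2% of all pairs. Without the 3 arrays that stand apart 4 of the 40 pairs did, against 13.4%.

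Dio3, the inactivating deiodinase, overlapped with the controls in all 9 exposure comparisons. None was called, and log2 fold changes ranged from -0.74 in young rats 9 months after 50 kBq to 1.16 in adult rats after 3 months. The first was based on levels of -2.86, -3.03, -2.62 and -4.14 against -2.37, -2.64, -2.04 and -2.64 in 10-month controls. The second rested on replicate 2 of the 7-month controls at -5.91, and was -0.23 without it. Without the arrays that stand apart the range was -0.96 to 0.25. The genes most like Dio3 over 49 arrays were Gdf10 (r = 0.77), a growth factor of the bone morphogenetic protein family, Gas6 (r = 0.72), a ligand of TAM receptors, and Timp1 (r = 0.71), an inhibitor of matrix metalloproteinases. Over the 46 arrays r was 0.70, 0.64 and 0.59, and the closest genes there were Dpp4, Gdf10 and Cxcl14 (r = 0.71, 0.70 and 0.68).

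Slc16a10, a carrier of aromatic amino acids that also carries thyroid hormone, gave the only called difference. Its levels in the 13-month controls were -6.49, -6.34 and -5.55, and only the last was well above background. The 4-month controls were at -4.23, -4.43, -5.43 and -3.92. All 3 older arrays lay below the 4 younger ones.

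The log2 fold change between these control groups was -1.62 ± 0.41 (adjusted p = 0.0073 with limma, exact two-sided permutation p = 0.0571). Of all probes 5.78% were called in this comparison and 35.6% did not overlap. Within 1 scan day the difference was -1.69 (2 against 2 arrays) and on another it was -1.67 (1 against 2). With normexp background correction it was -0.29 (adjusted p = 0.576 with limma), and the call was also lost when replicate 1, 2 or 4 of the 4-month controls or replicate 1 or 2 of the 13-month controls was left out (adjusted p up to 0.0506, log2 fold change -1.60 to -1.43).

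In adult rats 9 months after 50 kBq, Slc16a10 was at -4.45, -4.75, -5.05 and -4.15, wholly above the 13-month controls of the same age. The log2 fold change was 1.53 ± 0.41 (adjusted p = 0.0270 with limma, exact permutation p = 0.0286), which missed the threshold. With normexp background correction it was 0.059. In this comparison 0.676% of all probes were called and 26.4% did not overlap. Without the 3 arrays that stand apart, none of which belongs to these groups, the same difference had an adjusted p-value of 0.0059 and was called, as were 9.58% of 24009 probes. Both this comparison and the age comparison use the same 3 arrays of 13-month controls. The 75th percentile signal of those controls was 1333 to 1441, against 2426 to 3580 on the adult exposed arrays. Its part in the differences was not tested.

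Slc16a10 differed from controls by -0.35 to 0.55 on the log2 scale in the 8 other exposure comparisons, all overlapping. The values of -0.21 in adult rats after 3 months and in young rats after 6 months both turned to 0.24 without the 7-month control array that stands apart. Ordered by group mean, the 13-month controls (-6.12 ± 0.51, SD, n = 3) did not overlap with their neighbour, 5 kBq (-4.91 ± 0.37, n = 3). All other neighbours in the order overlapped. The highest mean was -3.95 ± 0.21 (n = 4) in young rats after 3 months, or -4.08 ± 0.17 (n = 2) without the arrays that stand apart. The effect of 50 kBq after 9 months was lower in young than in adult rats by 1.43 ± 0.56 and was not called (adjusted p = 0.256 with limma).

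Skeletal muscle markers, of which 10 of 11 had a probe, were also low in the 13-month controls. Their mean was 2.32, 2.38 and 3.79 there, against 5.29 to 6.71 in 4-month controls, and the log2 of their summed signal was 7.37 to 8.07 against 9.40 to 10.3. In the adult group after 9 months their mean was 6.26, 6.56, -2.85 and 6.56. Replicate 3 had the lowest muscle level of all arrays. Its Slc16a10 level of -5.05 was the lowest of the adult group and lay above all 13-month controls. Thyrocyte markers were 2.00 to 2.27 in the 13-month controls, against -0.061 to 1.91 in 4-month controls and 1.05 to 1.71 in the adult exposed group. The part of muscle and thyrocyte transcripts in the Slc16a10 differences was not tested.

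Over 46 arrays Slc16a10 followed muscle markers with r = 0.62 (Spearman rho = 0.78) and thyrocyte markers with r = -0.76 (rho = -0.78). With group means removed these r values were 0.50 and -0.69. Cartilage markers gave r = 0.45 (rho = 0.37), and 0.53 with group means removed. The genes most like it over 49 arrays were Mdh2, the mitochondrial malate dehydrogenase (r = 0.93), Gstm7, a glutathione transferase (r = 0.92), and Mef2d, a transcription factor of muscle genes (r = 0.92).

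The region upstream of Slc16a10 is shown because it belongs to the only gene called in these comparisons. The rat gene lies on chromosome 20, from 45014229 to 45122392 on the minus strand of GRCr8. The stretch below is the part of its RefSeq promoter outside the annotated gene, at chr20:45122393-45122608 (216 bases, 5′ to 3′ on the minus strand). Capitals mark AGGTCA, the half-site of nuclear receptors, searched on both strands.
Slc16a10: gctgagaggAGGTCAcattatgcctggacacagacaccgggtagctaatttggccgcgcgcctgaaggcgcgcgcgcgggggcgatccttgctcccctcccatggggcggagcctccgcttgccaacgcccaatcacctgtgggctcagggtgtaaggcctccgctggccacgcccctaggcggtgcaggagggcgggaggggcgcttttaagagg

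Of 8 promoters of 7 members 1 held the half-site in the 250 bases before the start, and 14.1% of 33469 rat promoters did. A match is a description of these letters and not evidence of a binding site. Slco1c1 was not in the promoter table used.

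Slco1c1, a high-affinity T4 transporter of brain capillaries and choroid plexus, was near background in this tissue. On the 7 arrays where it was well above background its level was -7.02 to -4.46, and these arrays lay in 5 exposed groups and in no control group. Only 14 of the 49 arrays were controls, so this count does not tie detection to exposure. The log2 fold changes ranged from -0.32 to 2.01, and each was computed largely from background signal. The highest, in young rats after 3 months, became 0.42 without the 2 arrays of that group that stand apart. The genes most like Slco1c1 were Adra1a, an adrenergic receptor, Gnat3, a taste-cell G protein subunit, and Taco1 (r = 0.78, 0.77 and 0.76 over 49 arrays), and r was 0.65, 0.69 and 0.64 over the 46 arrays. Tmem135, Eci2 and Uqcrb ranked first over the 46 arrays (r = 0.73 each).

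**Figure D3:**
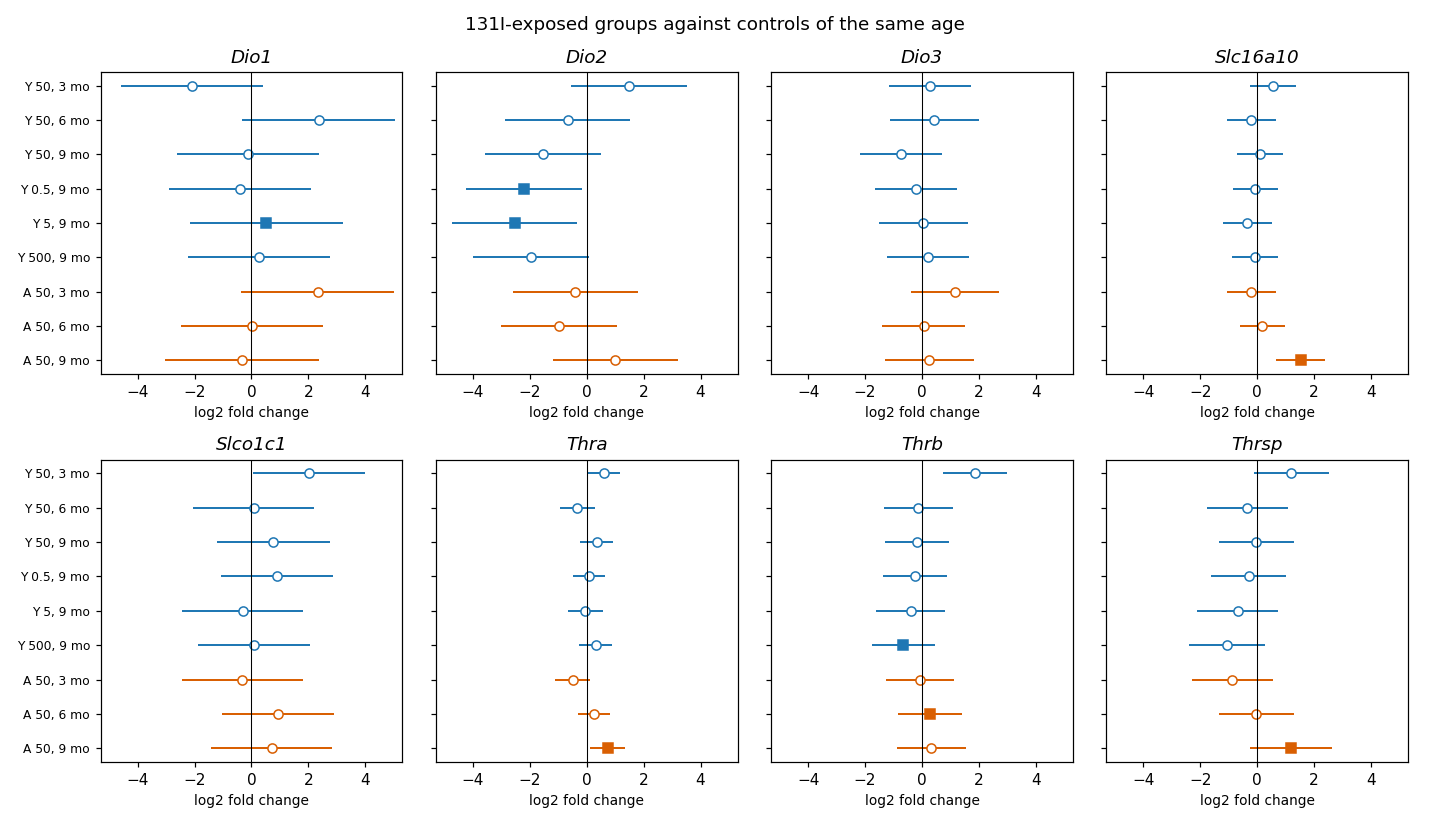
Log2 fold change of each gene (x axis) in the 9 exposed groups (rows; Y and A, injected young or adult, with activity in kBq and months after injection) against controls of the same age. Lines are limma 95% confidence intervals, and filled squares mark groups whose arrays do not overlap with the controls; Dio2 has squares at 0.5 and 5 kBq, and Slc16a10, Thra and Thrsp in adult rats after 9 months.

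Thra, the receptor that mediates T3 action in muscle, heart and brain, was well above background on all 49 arrays and varied little, from -1.08 to 1.12. In adult rats 9 months after 50 kBq it was at 0.10, -0.45, -0.42 and 0.02. The 13-month controls were at -0.92, -0.77 and -1.08. All exposed arrays lay above the controls, at a log2 fold change of 0.73 ± 0.29 (adjusted p = 0.114 with limma, exact permutation p = 0.0286). In this comparison 26.4% of all probes did not overlap.

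The 13-month controls were the lowest group for Thra as well, and did not overlap with the next group, 5 kBq (-0.37 ± 0.28, SD, n = 3). Relative to 4-month controls, which were at 0.24, 0.11, -0.79 and 0.23, the log2 fold change was -0.87 ± 0.29 (adjusted p = 0.0294 with limma). Replicate 3 of the 4-month controls overlapped with the older group. Without that array the fold change was -1.12 and passed the threshold (adjusted p = 0.0067 with limma). When each of the 7 arrays was left out in turn, 6 of the 7 fits gave no call. Log2 fold changes were -1.12 to -0.77, with adjusted p up to 0.0999 with limma. Over 46 arrays Thra and Slc16a10 correlated with r = 0.83.

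Marker lists of several cell types moved with Thra over the 46 arrays. Pearson's r was -0.63 for thyrocyte (Spearman rho = -0.66), 0.64 for cartilage (rho = 0.50), 0.58 for Schwann cell (rho = 0.56) and 0.49 for skeletal muscle markers (rho = 0.67). With group means removed, r was -0.59, 0.64, 0.66 and 0.37, in the same order. The shifts of thyrocyte and muscle markers in the 13-month controls given for Slc16a10 hold for the same Thra arrays. Cartilage markers, of which 5 of 6 had a probe, had means of -6.65 to -6.30 in the 13-month controls, -7.03 to -3.66 in the 4-month controls and -7.18 to -6.44 in adult rats after 9 months. The log2 of their summed signal was -3.34 to -2.98, -3.85 to -0.59 and -3.29 to -2.48. On replicate 3 of the 4-month controls, where Thra was at -0.79, thyrocyte markers were at 1.91 and cartilage markers at -7.03. Schwann cell markers, all 6 with a probe, had means of -3.40 to -2.67, -2.96 to -1.90 and -3.05 to -2.75 in these groups, and summed signals of 0.99 to 1.82, 1.83 to 2.75 and 1.74 to 2.04 on the log2 scale. Their part in the Thra differences was not tested.

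In young rats 3 months after 50 kBq, Thra was at 0.45, 0.10, 1.12 and 0.53, and the log2 fold change was 0.60 (adjusted p = 0.0949 with limma). Relative to 7-month controls it was -0.50 in adult rats after the same time. Without the arrays that stand apart these fold changes were 0.54 and -0.30. The difference between the effects over all arrays was 1.10 ± 0.39 (adjusted p = 0.0776 with limma), and 9 months against 3 months in adult rats gave 1.23 ± 0.41 (adjusted p = 0.144). Without the 3 arrays that stand apart these differences were 0.84 and 1.03. The genes most like Thra were Tle5, a transcriptional corepressor (r = 0.92), Sdr39u1 (r = 0.91) and Ndufa11, a subunit of mitochondrial complex I (r = 0.91).

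Thrb, the receptor of liver, pituitary and cochlea, was well above background on 4 of 4 arrays in adult rats 9 months after 50 kBq (-6.97, -7.08, -7.25 and -6.78) and on 0 of 3 arrays in the 13-month controls (-6.87, -6.93 and -8.26). The groups overlapped. The lowest level of any probe well above background was -7.75 to -7.24 on these adult arrays and -6.85 to -6.61 on these controls. The detection counts are therefore not on equal terms. It lay wholly above controls in adult rats after 6 months, by 0.28, and wholly below at 500 kBq, by -0.66, but at most 1 array of these groups was well above background. Of all probes 4.13% and 2.99% did not overlap in these comparisons. Among controls the 10-month group exceeded the 4-month group by 0.79 without overlap (3.19% of all probes), with no array well above background. The sign in adult rats after 6 months turned under quantile normalization (-0.00234) and normexp correction (-0.056).

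The lowest adjusted p-value of the 72 exposure pairs was that of Thrb in young rats after 3 months, at 0.0240 with limma. The log2 fold change of 1.85 ± 0.53 came from levels of -7.54, -3.75, -6.09 and -7.91, none well above background. The values of -3.75 and -6.09 were those of the dim array and of the array low in thyrocyte transcripts. Without both the difference was 0.45. The genes most like Thrb were Rita1, Gpx4 and Zc3h14 (r = 0.84, 0.83 and 0.83), and these fell to 0.61, 0.61 and 0.55 over the 46 arrays. Nr1h3, Ghr and Mogat2 ranked first over the 46 arrays (r = 0.69, 0.69 and 0.68).

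Thrsp (Spot 14), a lipogenic protein whose gene responds to T3 in liver and fat, spanned 0.71 to 6.00. In adult rats after 9 months its levels were 5.69, 4.99, 5.11 and 4.81, wholly above the 13-month controls at 4.63, 4.76 and 2.52. Of all probes 26.4% did not overlap there. The lowest exposed array, at 4.81, was next to the highest control, at 4.76, and the log2 fold change of 1.18 ± 0.69 was not called (adjusted p = 0.311 with limma). Without replicate 3 of the 13-month controls it was 0.46.

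Among controls, Thrsp was 0.71, 5.21, 3.03 and 3.43 at 4 months and 5.41, 5.06, 4.48 and 5.56 at 10 months. The difference of 2.03 ± 0.64 was not called (adjusted p = 0.628 with limma), while 0.0124% of all probes were. Without replicate 1 of the 4-month controls, at 0.71, it was 1.24. White adipocyte markers, of which 8 of 10 had a probe, had means of -0.51 to 2.03 at 4 months and 1.24 to 1.97 at 10 months. The log2 of their summed signal was 4.90 to 7.24 and 6.36 to 7.07. Their part in the difference was not tested.

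Over the 46 arrays Thrsp followed white adipocyte markers with r = 0.88 (Spearman rho = 0.92) and brown adipocyte markers with r = 0.79 (rho = 0.85). With group means removed, r was 0.91 and 0.83. Dio2 and Thrsp correlated with each other at r = 0.69, whereas Dio1 correlated with thyrocyte markers at r = 0.89 (rho = 0.87) and with neither Dio2 (r = -0.20) nor Thrsp (r = -0.042). Genes most like Thrsp were Cd40, a receptor of the tumour necrosis factor family (r = 0.94), Tm6sf2, a lipid transport protein (r = 0.93), and Gys2, a glycogen synthase (r = 0.92).

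**Figure D4:**
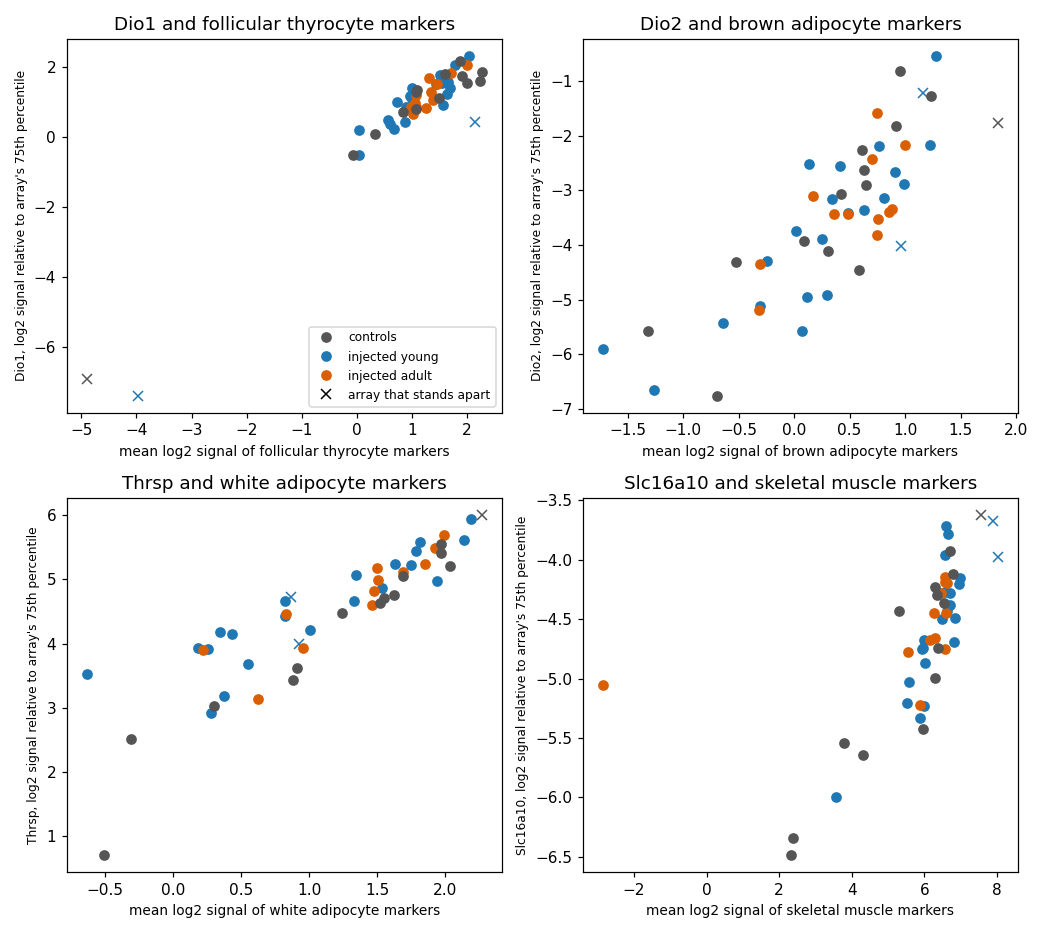
Level of 4 genes (y axes) against the mean level of a marker list (x axes), both as log2 signal relative to the array's 75th percentile; each point is 1 of 49 arrays, coloured by group, and crosses are the 3 arrays that stand apart. Over the other 46 arrays r was 0.89 for Dio1 with thyrocyte markers, 0.83 for Dio2 with brown adipocyte, 0.88 for Thrsp with white adipocyte and 0.62 for Slc16a10 with skeletal muscle markers.

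Further genes of the pathway were taken from 4 lists, of which 44 genes had a tested probe. None of them was called in the exposure comparisons, against 0.0779% of all pairs. In the age comparisons, 1 of 10 receptor partners and cofactors and 1 of 14 thyroid hormone responsive genes were called, both lower in 13-month than in 4-month controls. These 2 of 44 genes (4.55%) compare with 5.78% of all probes. None of 7 genes of the deiodinase pathway and none of 13 transport and binding genes were called. Median log2 fold changes in this age comparison were 0.45 for partners and cofactors, 0.15 for responsive genes, 0.33 for the deiodinase pathway and 0.60 for transport and binding, against 0.20 for all probes.

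Rxrg, a retinoid X receptor abundant in muscle that pairs with Thra and Thrb, was at -0.75, -0.95 and -1.37 in 13-month controls and at 1.83, 1.62, 0.63 and 2.19 in 4-month controls. It fell by 2.59 ± 0.57 on the log2 scale (adjusted p = 0.0031 with limma). In adult rats 9 months after 50 kBq it was at 1.67, 1.67, -0.26 and 1.52, wholly above the 13-month controls (2.17 ± 0.57, adjusted p = 0.0249 with limma), where 26.4% of all probes did not overlap.

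Ucp3, a mitochondrial carrier of skeletal muscle and brown fat whose gene responds to T3, was at -0.29, -0.33 and -0.12 in 13-month controls. In 4-month controls it was at 2.51, 2.30, 2.07 and 4.33, so that it fell by 3.05 ± 0.70 on the log2 scale (adjusted p = 0.0043 with limma). The adult exposed arrays were at 3.08, 2.86, -0.14 and 3.12. The lowest was replicate 3, on which muscle markers were also lowest. For all 3 genes the part of muscle transcripts was not tested.

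**Figure D5:**
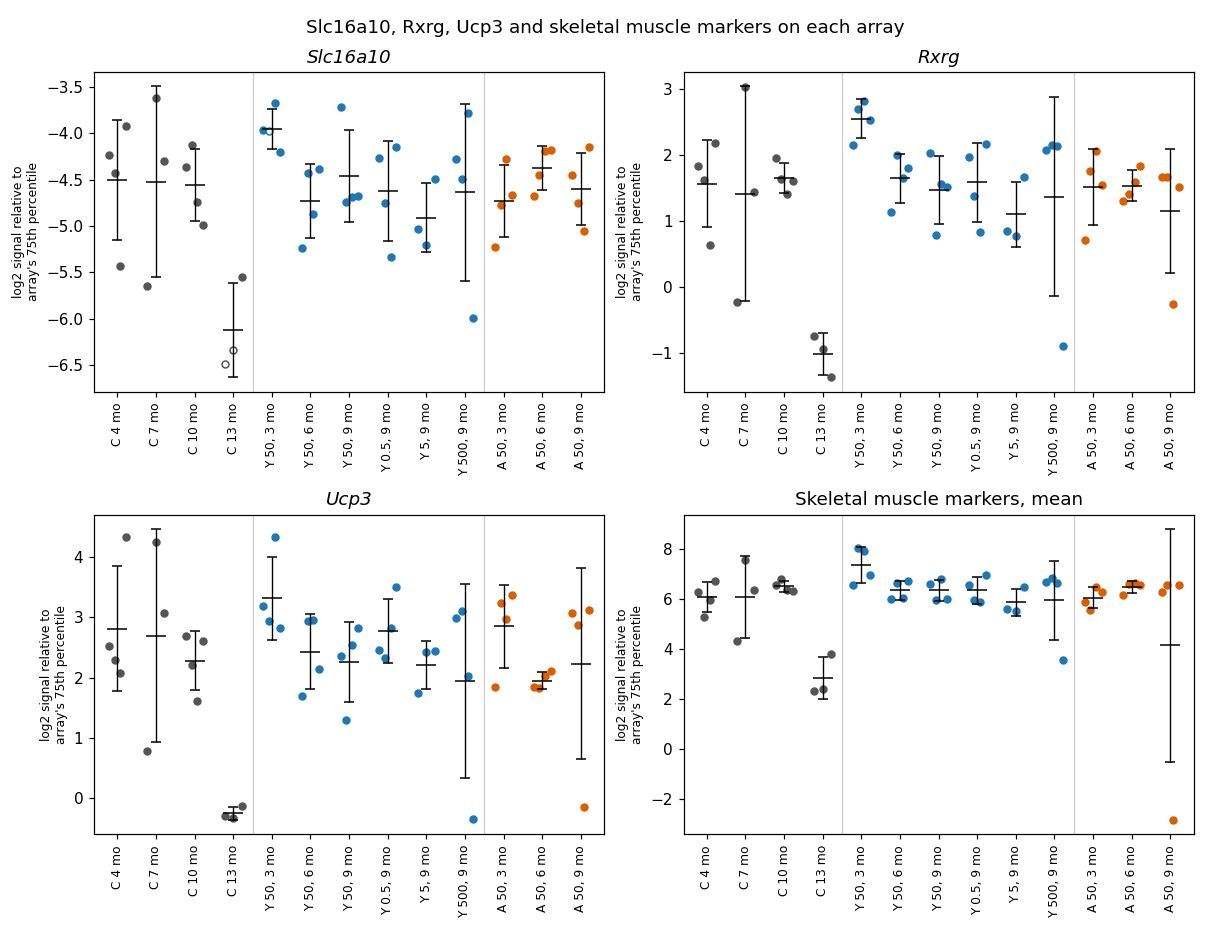
Slc16a10, Rxrg, Ucp3 and the mean of the skeletal muscle markers on each array, as log2 signal relative to the array's 75th percentile (y axis), by group (x axis: C, controls by age; Y and A, rats injected young or adult, with activity in kBq and months after injection). Points are arrays, open where the probe was not well above background, and bars are mean ± SD. All 4 panels are low in the 13-month controls, and Rxrg, Ucp3 and the markers are also low on 1 adult array after 9 months and 1 array at 500 kBq. Rxrg (-0.23) and Ucp3 (0.78) are low on replicate 1 of the 7-month controls as well.

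For the lists without a call, the rule named the genes with the largest non-overlapping differences. Of all probes, 26.4% did not overlap in adult rats after 9 months, and 35.6% did not between 13- and 4-month controls. Iyd, the iodotyrosine deiodinase that recovers iodide, was at -1.41, -1.10, -1.34 and -1.07 in adult rats 9 months after 50 kBq and at 0.61, 0.78 and -0.54 in 13-month controls (log2 fold change -1.51, adjusted p = 0.537 with limma). Usp20, which deubiquitinates Dio2, differed by 1.19 between 13- and 4-month controls (adjusted p = 0.0256). Slco4c1, an organic anion transporter that carries thyroid hormone, was at -1.44, -1.53 and -2.71 in the 13-month and at -5.80 to -3.32 in the 4-month controls, a difference of 2.68 (adjusted p = 0.0628). Ttr, the plasma carrier transthyretin, was 2.00 higher in 7-month than in 4-month controls (adjusted p = 0.512 with limma), of which 2 of 4 arrays were not well above background, and 1.79 higher without the 7-month array that stands apart. It was -1.55 in 13-month relative to 4-month controls (adjusted p = 0.173), with no 13-month array well above background. The former was a comparison in which 0.00415% of all probes and no member were called. In adult rats after 9 months Slco4c1 lay wholly below the controls (-1.82) and Ttr wholly above them (1.43). After 3 months Ttr lay wholly below (-1.55), with the 7-month control array that stands apart included. Usp20 was 0.63 higher at 5 kBq without overlap, where 15.6% of all probes did not overlap. None of these exposure differences was called.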

How the data were processed

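RNA of 49 rat thyroids, each from 1 animal, was hybridised to Agilent Sureprint G3 Rat GE 8x60K arrays with Cy3 label, and groups were taken from the sample labels. The authors deposited one Agilent Feature Extraction file per array (version 10.7.3.1, per the file headers), whose processed signal is an intensity after background subtraction, not scaled between arrays. Other per-spot columns, also deposited, mark spots as outliers, saturated or well above background, in other units (0 or 1). The submitters' processing notes name Partek, and the authors called transcripts with Nexus Expression at a fold change of 1.5 and an adjusted p-value of 0.01, thresholds that were kept here. How they normalized the arrays is not given in the sources used here. Their own fold changes (9 columns) were not used.

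Without control and outlier spots, the log2 signal was taken relative to each array's 75th percentile and averaged over the spots of a probe. Symbols were matched through RefSeq accessions for 17998 of 30367 probes, and promoters came from RefSeq (GRCr8). Probes well above background on at least 3 arrays were kept, 24105 in number. Signal over background and the number of arrays limit the precision.

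One limma 3.58.1 model (R 4.3.3) with 13 group means gave 9 exposure, 3 age and 5 interaction contrasts, and a second model gave the slope on log10 activity. The fit was checked on simulated data. Exact permutation tests of group means were two-sided, with a smallest p-value of 0.0286. Rats are separate animals. The scan dates fell on 3 days, and 8 slides held the arrays. The young 50 kBq arrays after 6 months shared no scan day with the 7-month controls. Most 500 kBq arrays shared none with the 10-month controls. Exposure and scan day cannot be told apart for these arrays. Plots were drawn with python 3.11.15, matplotlib 3.10.9, numpy 2.4.6.

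The members, pathway lists and marker lists were chosen with earlier results of these data known. The named genes were all 8 members, each listed pathway gene called in an exposure or age comparison or, in a list without a call, the 2 with the largest non-overlapping difference, and the 3 genes with the highest Pearson r to each member. For a listed gene with several probes, the brightest on average was used. Because the files hold no mean signal, the normexp alternative started from median signals. Alternatives were other normalizations, background corrections, filters, blocks, thresholds, array weights, moderation settings and subsets of arrays. The 3 alternatives without the arrays that stand apart were chosen after seeing the data.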

Additional observations from a re-analysis of the deposited data

Results flagged for a closer look

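In 7 of 80 sets of 4 arrays (8.75%), 1 array lay far from the others of its group for a gene, where chance gives about 1 in 20. Dio1 was at -7.40 on replicate 3 of the young 50 kBq group after 3 months, against 0.23 for the nearest array; thyrocyte markers were at -3.97 there. Dio2 was at -1.59 on replicate 4 of the adult group after 6 months, against -3.11. Dio3 was at -4.03 on that same array, against -1.94, and at -4.06 on replicate 2 of the young 50 kBq group after 6 months, against -2.39. Slc16a10 was at -3.72 on replicate 1 of the young 50 kBq group after 9 months, against -4.68. Thra was at -0.79 on replicate 3 of the 4-month controls, against 0.11. Thrsp was at 3.52 on replicate 1 of the young 50 kBq group after 6 months, against 4.66.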

How the results depend on the processing

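No member called in an exposure comparison became 2 with array weights, 2 at an adjusted p-value below 0.05 and 1 without the 3 arrays that stand apart, and 0 to 1 when single arrays were left out. The 1 age call of Slc16a10 became 0 with quantile normalization (-1.81), normexp (-0.29), the replicate block (-1.63) or the 2 groups fitted alone, 4 with array weights and 2 at an adjusted p-value below 0.05, and 0 to 2 without single arrays. Interaction calls were 3 with array weights and 0 without any single array, and the trend gave 0 throughout. Over all probes, the 169 exposure calls became 40 with normexp, 20 without a filter, 11 with the scan date and 20 with the replicate block. They became 8648 with array weights, 5442 at an adjusted p-value below 0.05 and 4 with groups fitted in pairs. They were 486, 1194 and 2320 without the 2 arrays low in thyrocyte transcripts, the dim array or all 3, and 6 to 4263 without single arrays. A fit of the 9-month young groups and their controls alone covered only 4 of the 9 exposure comparisons and gave 0 calls. In the main fit those comparisons had 0, 3, 3 and 0 calls at 0.5, 5, 50 and 500 kBq. The 1397 age calls became 564, 2494, 869, 9233, 4600 and 0 with normexp, scan date, replicate block, array weights, the looser threshold and pairs, 2647, 4101 and 5595 without those arrays, and 20 to 4101 without single arrays. Listed pathway genes called after exposure were 22 with array weights, 10 at the looser threshold, 1, 3 and 6 without those arrays and 0 to 7 without single arrays, against 0. Signs turned for Thrb in adult rats after 6 months (-0.00234 with quantile normalization, -0.056 with normexp) and for Dio1 at 5 kBq (-0.046 with the scan date). The cause of these changes was not tested. Replicate numbers did not pair the samples (median r of deviations -0.024 for the same number and 0.011 for others). Dim probes limit Slco1c1 and Thrb, and 3 or 4 arrays a group limit every comparison.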
